A study of Mus musculus with 21 samples.

Results

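CD45 is the receptor-type tyrosine phosphatase encoded by Ptprc, and its splice isoforms were followed here transcript by transcript together with Hnrnpll, which encodes the splicing regulator hnRNPLL. The members were chosen by gene symbol: all 13 annotated Ptprc transcripts and all 7 annotated Hnrnpll transcripts, which make 20 of the 137641 transcripts in the deposited Salmon tables and 2 of the 51201 genes in the deposited gene tables. Poly(A) RNA came from spleens of C57BL/6J mice at postnatal day 35. The L-gp130 mice were L-gp130fl/+;CD4Cre+/-, in which Cre under the Cd4 promoter switches on L-gp130, a form of the interleukin-6 family receptor gp130 that is held together by a leucine zipper and signals without ligand. The control mice were CD4Cre+/-, so that Cre was present in every animal, and Cd4-driven Cre acts in thymocytes that give rise to CD4 and CD8 cells alike. There were 6 L-gp130 CD4 libraries, 6 control CD4 libraries, 3 L-gp130 CD8 libraries and 6 control CD8 libraries. CD4 cells were captured with anti-CD4 magnetic beads and CD8 cells were enriched by removing other cells, so selection method goes with cell type. Libraries are labelled by mouse, and p-values measure the spread between mice as labelled.

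CD45 removes the inhibitory phosphate from the kinases Lck and Fyn and so sets the threshold of T cell receptor signalling. Near the start of its extracellular part, exons 4, 5 and 6, called A, B and C, encode a heavily glycosylated stretch that can be kept or skipped. B cells carry the longest form with A, B and C (CD45R, or B220), naive T cells carry intermediate forms such as CD45RB, and activated and memory T cells shift to the short form without A, B and C (CD45RO). hnRNPLL rises when T cells are activated, binds CA-rich RNA in the variable exons and favours their skipping, and its relative hnRNP L acts on the same exons. Antibodies to these isoforms have long been used to tell naive from memory T cells.

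Ptprc (ENSMUSG00000026395.16) lies on chromosome 1 at 138062861 to 138175708 on the minus strand, and Hnrnpll (ENSMUSG00000024095.15) lies on chromosome 17 at 80029487 to 80062334 on the minus strand (GRCm38, GENCODE M21). Numbered on the 33 exons of Ptprc-207, exon 4 has 129 bases, exon 5 has 147, exon 6 has 141 and exon 7 has 72, each a multiple of 3. Only 4 transcripts have annotated exons on both sides of this stretch. Ptprc-207 (ENSMUST00000183301.7, 5074 bases) holds exons 4, 5, 6 and 7. Ptprc-203 (ENSMUST00000182283.7, 4702 bases) skips exons 4, 5 and 6 and keeps exon 7, and Ptprc-204 (ENSMUST00000182755.7, 4611 bases) skips exons 4 to 7. Ptprc-213 (ENSMUST00000195533.5, 702 bases) has exon 5 without exons 4 and 6 and keeps exon 7, but its model starts inside exon 1 and ends inside exon 10. The 4 are called spanning transcripts below, and they carried between 81.6% and 89.9% of all Ptprc TPM in each library. No full-length model with exon 5 alone, or with exactly 2 of exons 4, 5 and 6, exists in this annotation, and the exon values are estimates under this annotation.

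**Figure D1:**
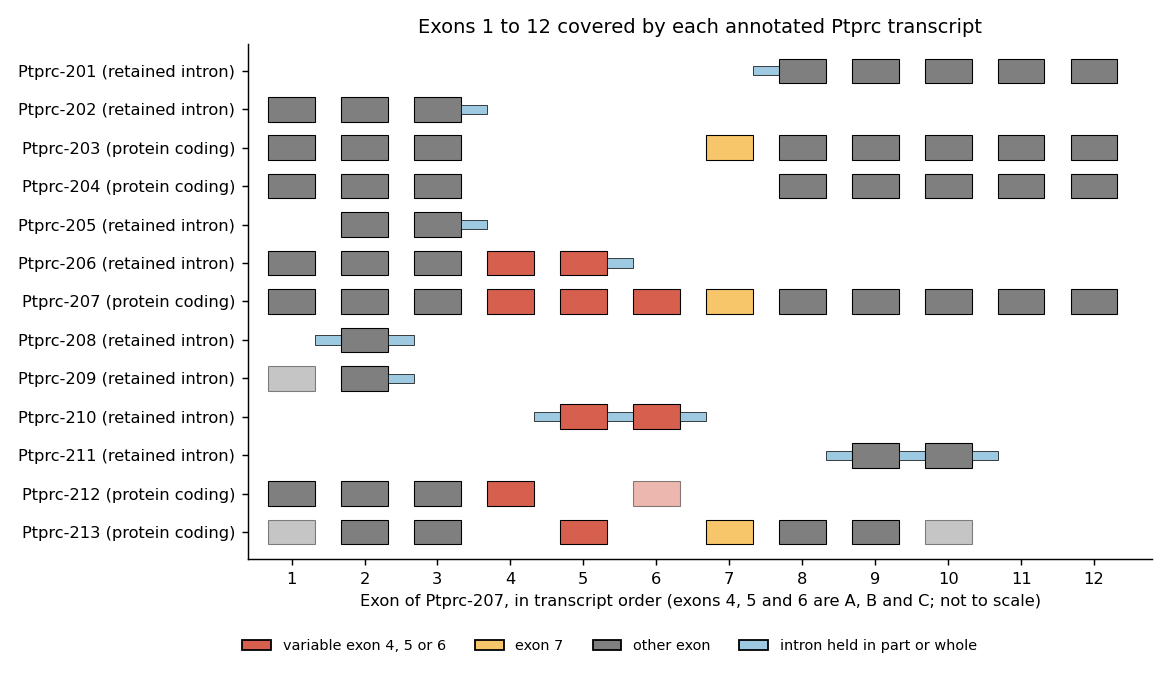
Exons 1 to 12 of Ptprc, numbered along Ptprc-207, that each of the 13 annotated transcripts covers. Full boxes are whole exons, pale boxes are exons covered in part, and thin blue boxes are introns held in part or whole; exons 4, 5 and 6 are all present in Ptprc-207 alone, and Ptprc-213 holds exon 5 without its neighbours.

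The variable exons are printed because hnRNPLL and hnRNP L act on them through CA-rich stretches. They are GRCm38 exon sequences on the minus strand of chromosome 1, read 5′ to 3′ from the GENCODE M21 transcripts, at chr1:138122456-138122584 for exon 4, chr1:138120020-138120166 for exon 5, chr1:138117754-138117894 for exon 6 and chr1:138116954-138117025 for exon 7. Capitals mark the motif CACA, searched on the transcript strand only, with overlapping copies counted singly.
exon 4: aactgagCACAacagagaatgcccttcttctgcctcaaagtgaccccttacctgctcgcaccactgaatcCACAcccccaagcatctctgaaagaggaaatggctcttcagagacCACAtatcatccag
exon 5: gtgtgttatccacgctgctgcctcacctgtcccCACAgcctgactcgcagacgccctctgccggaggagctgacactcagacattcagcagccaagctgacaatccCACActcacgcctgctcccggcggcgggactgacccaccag
exon 6: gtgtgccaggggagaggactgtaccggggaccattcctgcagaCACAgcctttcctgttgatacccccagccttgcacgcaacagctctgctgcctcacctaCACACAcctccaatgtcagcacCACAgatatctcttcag
exon 7: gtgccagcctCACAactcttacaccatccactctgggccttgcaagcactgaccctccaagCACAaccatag
Exon 4 holds 3 copies of CACA, exon 5 holds 2, exon 6 holds 4 and exon 7 holds 2. Among 109349 annotated internal exons of 100 to 200 bases, 49.1% hold at least 1 copy, so its presence alone is common. Among internal exons within 5 bases of the same length, 3.64% hold at least 3 copies (exon 4), 18.7% at least 2 (exon 5), 1.20% at least 4 (exon 6) and 5.46% at least 2 (exon 7). A motif match is a description of the letters and not a shown binding site.

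Salmon assigned 17803348 to 21250567 reads to each L-gp130 CD4 library and 27894037 to 35913566 reads to each control CD4 library. The CD8 libraries received 17237661 to 19498293 reads with L-gp130 and 17737131 to 19311661 reads as controls, so the control CD4 libraries were the deepest. Depth thus goes with genotype in CD4 cells and cannot be told apart from it there. This also bears on the comparison of genotype differences between cell types. The exon values were not computed at equal depth. Cd4 averaged 715 CPM (normalised read counts scaled to a common library size) in L-gp130 CD4 and 727 in control CD4 libraries, against 11.6 and 8.30 in L-gp130 and control CD8 libraries, and Cd8a averaged 892 and 1121 CPM in L-gp130 and control CD8 libraries, against 34.7 and 10.8 CPM in L-gp130 and control CD4 libraries. The control CD4 library of replicate 5 is labelled female and did not match its labelled sex. Replicate 1 of the L-gp130 CD4 libraries stood apart, with 480 TPM of Ptprc, a sum of naive T cell markers of 1972 CPM against 3368 or more in the other 5, and the highest sum of monocyte-macrophage markers, 1948 CPM. Labelled sex was uneven in CD4 cells, with 4 male mice among the 6 L-gp130 and 1 among the 6 control mice, and it was a term in the main model fits but not in the exact permutation tests of exon values and shares. In bulk samples, fewer cells of a type and less RNA per cell cannot be told apart.

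Total Ptprc did not pass the test in any comparison. In CD4 cells it averaged 1982 ± 231 CPM with L-gp130 and 1735 ± 122 CPM in control libraries (SD, n = 6 each), with a log2 fold change of 0.16 ± 0.13 (SE, edgeR quasi-likelihood test, adjusted p = 0.392). In CD8 cells the 3 L-gp130 libraries held 1887, 1844 and 1995 CPM, against 1666 to 1978 CPM in the 6 control libraries, with means of 1909 and 1824 CPM from Salmon reads summed per gene. The fit on the deposited gene tables gave a log2 fold change of the opposite sign, -0.04 ± 0.08 (SE, edgeR adjusted p = 0.772), and the fit on the summed Salmon reads gave 0.07 (edgeR adjusted p = 0.468). Control CD4 and control CD8 cells differed by -0.04 ± 0.06 on the log2 scale (SE, edgeR adjusted p = 0.593). The ranges of all 4 groups overlapped, so the isoform differences below were measured at total levels that were not shown to differ. In CD4 cells the overlap came from replicate 1 of L-gp130 alone, at 1551 CPM. The other L-gp130 CD4 libraries held 1955 to 2212 CPM, above the control CD4 range of 1565 to 1899 CPM. In these comparisons edgeR called 18.9% of 15016 genes (L-gp130 against control in CD4), 21% (2996) of 14254 genes (L-gp130 against control in CD8) and 52.3% of 14660 genes (control CD4 against control CD8).

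In L-gp130 CD4 cells, CD45 transcripts carried fewer variable exons than in control CD4 cells. By TPM there was less exon 5, which lay mostly in the 702-base fragment Ptprc-213, and more of the shortest form, Ptprc-204. The measure is the mean number of exons 4, 5 and 6 per spanning molecule, weighted by TPM. It was 0.238 at the lowest, 0.300 at the median and 0.312 at the highest in the 6 L-gp130 CD4 libraries. In the 6 control CD4 libraries it was 0.333 at the lowest, 0.382 at the median and 0.416 at the highest. Every L-gp130 library lay below every control library, with a difference of the means of -0.0886 (exact permutation test, 2-sided, p = 0.00216, the smallest that 924 arrangements allow). Without replicate 1 of L-gp130 CD4 and replicate 5 of control CD4 the difference was -0.0954 (exact permutation p = 0.00794). The separation held by TPM only. With shares of reads the mean number was 0.126 to 0.225 in L-gp130 and 0.188 to 0.324 in control CD4 libraries, and the groups overlapped. By TPM, among labelled females, the 2 L-gp130 libraries, at 0.305 and 0.312, also lay below the 5 control libraries, which started at 0.333. That lowest control was replicate 5, which did not match its labelled sex, and the next was at 0.345.

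Exon 5 (B) was in 20.6 ± 3.05% of spanning TPM in L-gp130 CD4 libraries and in 26.6 ± 1.61% in control CD4 libraries (SD, n = 6 each). Its values ran from 15.7% through a median of 21.7% to 23.6% in L-gp130 libraries, and from 25.0% through 26.0% to 28.9% in control libraries. The groups did not overlap (exact permutation p = 0.00216). With shares of reads in place of TPM, which weigh the 702-base Ptprc-213 less, exon 5 was at 5.4% to 8.18% in L-gp130 and 8.1% to 12.4% in control CD4 libraries. The groups then overlapped by 1 library, and the difference was -2.90 percentage points (exact permutation p = 0.00649). Of this, -2.22 came from Ptprc-207, which also carries exons 4 and 6. Complete coding sequences only leave out Ptprc-213. Exon 5 is then the share of Ptprc-207 alone, as are exons 4 and 6, and the difference was -2.13 (exact permutation p = 0.0368). Exon 7, which lies next to the variable exons and is skipped along with them in Ptprc-204, was in 85.1 ± 2.37% in L-gp130 and 90.4 ± 0.986% in control CD4 libraries, again without overlap (exact permutation p = 0.00216). Exons 4 (A) and 6 (C) share 1 value, since Ptprc-207 alone supplies both. They were in 4.21 ± 1.09% in L-gp130 and 5.66 ± 1.39% in control CD4 libraries, and these groups overlapped (exact permutation p = 0.0714). That test turned on 1 library: without replicate 1 of L-gp130 CD4, which at 6.03% was the highest of its group, the difference was -1.81 percentage points (exact permutation p = 0.0173). With shares of reads it was -2.22 (exact permutation p = 0.0368).

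Ptprc-204, the form without exons 4 to 7, was higher in L-gp130 CD4 cells. It held between 78.5 and 109 TPM with a median of 101 in the L-gp130 CD4 libraries, and between 42.6 and 71.4 TPM with a median of 65.4 in the control CD4 libraries. As a share of Ptprc TPM it was 13.1 ± 2.30% in L-gp130 and 8.23 ± 0.834% in control libraries (SD, n = 6 each). Neither its TPM nor its share overlapped between the groups, and the share ran from 10.2% to 17.2% in L-gp130 against 6.66% to 8.99% in control libraries (exact permutation p = 0.00216). Ptprc-203, the main form without exons 4, 5 and 6 but with exon 7, made up 56.5 ± 2.19% in L-gp130 and 54.9 ± 1.01% in control CD4 libraries and overlapped (exact permutation p = 0.143). The share of Ptprc-213, the exon 5 form, was 14.3 ± 3.07% in L-gp130 and 18.0 ± 1.5% in control libraries (exact permutation p = 0.0130), with overlapping ranges. Ptprc-207, the form with all 3 exons, was 3.69 ± 0.999% and 4.87 ± 1.22% (exact permutation p = 0.0974). In each comparison 30 such measures were tested this way, 10 on the spanning transcripts and 20 shares, and these permutation p-values are unadjusted.

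**Figure D2:**
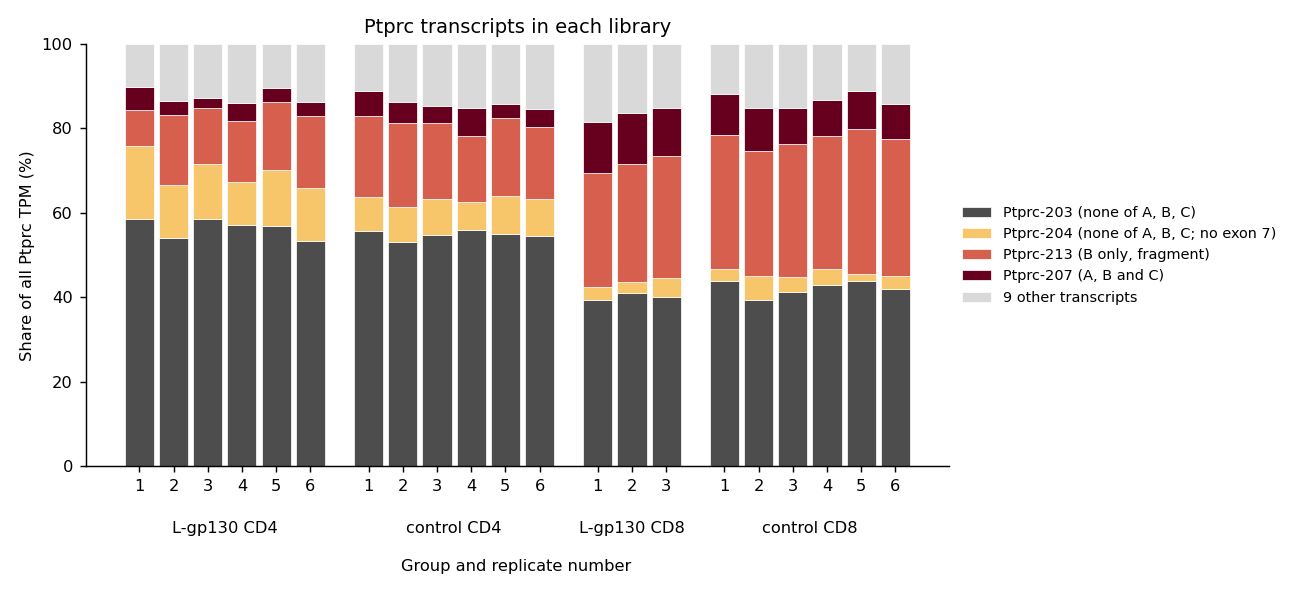
Share of all Ptprc TPM (%, y axis) held by the 4 spanning transcripts and by the other 9 together in each of the 21 libraries, grouped by genotype and cell type with the replicate number below each bar. Ptprc-204 is at 10.2% or above in each L-gp130 CD4 library and at 8.99% or below in each control CD4 library, and Ptprc-213 and Ptprc-207 take larger shares in CD8 than in CD4 libraries.

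Further tests were fitted across all transcripts. In CD4 cells 1 of 11 tested Ptprc transcripts was called, against 5.02% of all 39131 transcripts: Ptprc-204 rose with a log2 fold change of 0.81 ± 0.14 (SE, edgeR adjusted p = 0.00700). Without replicate 6 of L-gp130 CD4 its edgeR adjusted p was 0.0522. A second test, of usage, asks whether a transcript moved differently from the rest of its gene, and there 0 of 11 were called, against 0.219% of 33285 transcripts. In simulated data this usage test also called 39 transcripts of genes that had been given no change in CD4 cells and 53 in CD8 cells, where 73 and 151 were called in the measured data. Ptprc-204 came closest, at 0.59 ± 0.14 on the log2 scale (SE, edgeR adjusted p = 0.0628), and 3 of the 11 had an unadjusted p under 0.05, namely Ptprc-204, Ptprc-207 and Ptprc-212. With limma's usage test Ptprc-204 was at 0.78 (adjusted p = 0.000917) and Ptprc-207 at -0.64 (adjusted p = 0.0363), so the call depends on the tool. Leaving out replicate 4 of either CD4 group also brought Ptprc-204 past the edgeR threshold (adjusted p = 0.0143 without the control and 0.0077 without the L-gp130 library).

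Markers of other cell types differed between the same libraries. B cells carry the form with exons 4, 5 and 6, and the sum of 11 B cell markers was lower in L-gp130 CD4 libraries, at 278 to 681 CPM with a median of 354, than in control CD4 libraries, at 287 to 1081 CPM with a median of 674, with overlapping ranges. Of these 11 markers 5 fell, against 18.9% of all genes called in either direction, among them Cd79b of the B cell receptor, at -1.27 ± 0.37 log2, and Ms4a1, which encodes CD20, at -1.15 ± 0.35 log2 (SE, edgeR adjusted p = 0.0366 and 0.0399), and none was at 0 in any group. Among the 6 L-gp130 CD4 libraries the B cell marker sum and exon 4 inclusion had Pearson r = 0.938 (exact permutation p = 0.00278, 0.00833 after Benjamini-Hochberg adjustment over 3 groups) and Spearman rho = 1, and r = 0.639 without the 2 libraries farthest from the median sum. Among the 6 control CD4 libraries r was 0.913 (exact permutation p = 0.0250, adjusted 0.0250), rho was 0.886 and r was 0.907 without the 2 farthest. Control CD4 replicate 5, the library that did not match its labelled sex, had the lowest B cell marker sum of its group, 287 CPM, and the lowest number of variable exons, 0.333. Plasmacytoid dendritic cells carry B220 as well, and all 4 of their markers fell in L-gp130 CD4 cells, with a median of -1.75 log2 and sums of 12.1 to 25.1 CPM in L-gp130 libraries and 33.4 to 78.3 CPM in control libraries, without overlap. By edgeR none of 8 monocyte-macrophage, 4 NK cell or 6 general T cell markers was called in CD4 cells, while 1, 2 and 1 of them had an unadjusted p under 0.05 and DESeq2 called 1 of each list. DESeq2 called 9 of the 11 B cell markers. The part of RNA from B cells or plasmacytoid dendritic cells in the CD4 differences was not tested.

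Markers of T cell state moved as well. Of 6 naive T cell markers 3 fell in L-gp130 CD4 cells, where 18.9% of all genes were called, with sums of 1972 to 3901 CPM in the L-gp130 libraries and 3809 to 4506 CPM in the control libraries. Of 7 effector-memory markers 4 rose, with sums of 1079 to 1712 CPM in the L-gp130 libraries and 805 to 974 CPM in the control libraries. The effector-memory sums did not overlap, whereas the naive sums did. The part that the mix of naive and memory cells has in the CD45 values was not tested.

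In L-gp130 CD8 cells the difference ran the other way. The mean number of variable exons per molecule was 0.775, 0.767 and 0.743 in the 3 L-gp130 CD8 libraries. In the 6 control CD8 libraries it was 0.658 at the lowest, 0.683 at the median and 0.710 at the highest. All 3 L-gp130 libraries lay above all control libraries, with a difference of the means of 0.0788 (exact permutation test, 2-sided, p = 0.0238, the smallest that 3 against 6 libraries allow). Deviations of same-numbered CD8 libraries had correlations of 0.126 to 0.413 in 3 pairs, which does not establish that they are paired. Labelled sex was also the same within each pair. Taken as pairs, the difference was 0.0695 (exact permutation p = 0.250, the smallest that 3 pairs allow). With shares of reads the unpaired difference was 0.140 (exact permutation p = 0.0238).

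By TPM, the CD8 difference lay in exons 4 and 6, and exon 5 did not pass the test. Exons 4 and 6 were in 14.8%, 14.4% and 13.4% of spanning TPM in the 3 L-gp130 CD8 libraries and in 9.74% to 12%, with a median of 10.2%, in the control CD8 libraries. The groups did not overlap (exact permutation p = 0.0238), and within the 3 pairs the difference was 3.14 percentage points (exact permutation p = 0.250, the smallest possible). Exon 5 was in 47.8 ± 0.217% in L-gp130 and 47.3 ± 0.843% in control CD8 libraries (SD, n = 3 and 6, exact permutation p = 0.405). When shares were taken of reads instead of TPM, exon 5 was 3.97 percentage points higher in L-gp130 CD8 libraries (exact permutation p = 0.0238). That value includes Ptprc-207, which carries exons 4, 5 and 6. By reads, Ptprc-207 alone was at 21.2% to 23.0% in L-gp130 and 16.0% to 19.1% in control CD8 libraries. Exon 7 was in 96.0 ± 1.18% in L-gp130 and 96.0 ± 1.58% in control CD8 libraries (exact permutation p = 0.929).

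Ptprc-207, the form with exons A, B and C, is the 1 spanning transcript with exons 4 and 6. It held 102, 92.2 and 98.1 TPM in the L-gp130 CD8 libraries, against 69.1 to 81.8 TPM with a median of 72.3 in the control CD8 libraries. Its share of Ptprc TPM was 11.8 ± 0.395% in L-gp130 and 9.09 ± 0.714% in control CD8 libraries (exact permutation p = 0.0238), and neither measure overlapped. In the fit across all transcripts it was the 1 called of 12 tested Ptprc transcripts, against 4.12% of 38877 transcripts, with a log2 fold change of 0.38 ± 0.06 (SE, edgeR adjusted p = 0.0172). With the replicate number as a block it was 0.44 (edgeR adjusted p = 0.0911), and that fit called 6 transcripts of all in place of 1600. The call was also lost when any 1 of the 3 L-gp130 CD8 libraries was left out, with an adjusted p of up to 0.112.

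The usage test gave the same transcript and no other: 1 of 12 tested, against 0.448% of 33699 transcripts, with Ptprc-207 at 0.36 ± 0.08 log2 (SE, edgeR adjusted p = 0.0272). The block gave 0.30 (edgeR adjusted p = 0.140) and 379 calls in all in place of 151, and limma's usage test gave 0.38 (adjusted p = 0.0962). Leaving out control CD8 replicate 4 or 6 or any L-gp130 CD8 library also ended the call, with an edgeR adjusted p of up to 0.344. Ptprc-213 had a smaller share in the L-gp130 CD8 libraries, at 27.0%, 28.0% and 29.0%, against 29.7% to 34.3% in control CD8 libraries, without overlap (exact permutation p = 0.0238). In edgeR it was at -0.30 ± 0.12 log2 (SE), which missed the threshold (adjusted p = 0.225). Ptprc-203 made up 40.2 ± 0.899% in L-gp130 and 42.2 ± 1.75% in control CD8 libraries (exact permutation p = 0.119). Ptprc-204 stayed at 3.38 ± 1.03% in L-gp130 and 3.41 ± 1.32% in control CD8 libraries, with overlapping ranges.

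In the CD8 libraries none of the 11 B cell markers was called by edgeR or DESeq2 and 1 had an unadjusted p under 0.05 in edgeR, and their sums were 59 to 84 CPM in the L-gp130 and 46 to 116 CPM in the control libraries, overlapping. Plasmacytoid dendritic cell marker sums were 40.1 to 60.3 CPM in L-gp130 and 118 to 172 CPM in control CD8 libraries, without overlap, and 1 of the 2 markers high enough to test fell. Between the control groups 3 of these 4 markers were higher in CD4 and 1 was higher in CD8 cells. The control CD4 sums were still the lower, at 33.4 to 78.3 CPM. The CD8 sums thus follow mainly 1 marker and need not measure these dendritic cells. General T cell markers fell in 4 of 6 cases, with sums of 2443 to 2730 CPM in the L-gp130 and 3008 to 3681 CPM in the control libraries, also without overlap. Of the monocyte-macrophage markers 4 of 8 fell and of the NK cell markers 2 of 4, where 21% of all genes were called, and the sums of both overlapped. Among the 6 control CD8 libraries the marker sum and exon 4 inclusion had Pearson r = 0.849 (exact permutation p = 0.0194, adjusted 0.0250) and rho = 0.943, and r = 0.542 without the 2 farthest. Of the naive T cell markers 5 of 6 fell and of the effector-memory markers 6 of 7 rose in L-gp130 CD8 cells, with naive sums of 3826 to 4510 CPM in the L-gp130 and 4895 to 5545 CPM in the control libraries. The effector-memory sums were 1896 to 2589 CPM in the L-gp130 and 1331 to 1537 CPM in the control libraries, so neither sum overlapped. Their part in the CD45 values was not tested.

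**Figure D3:**
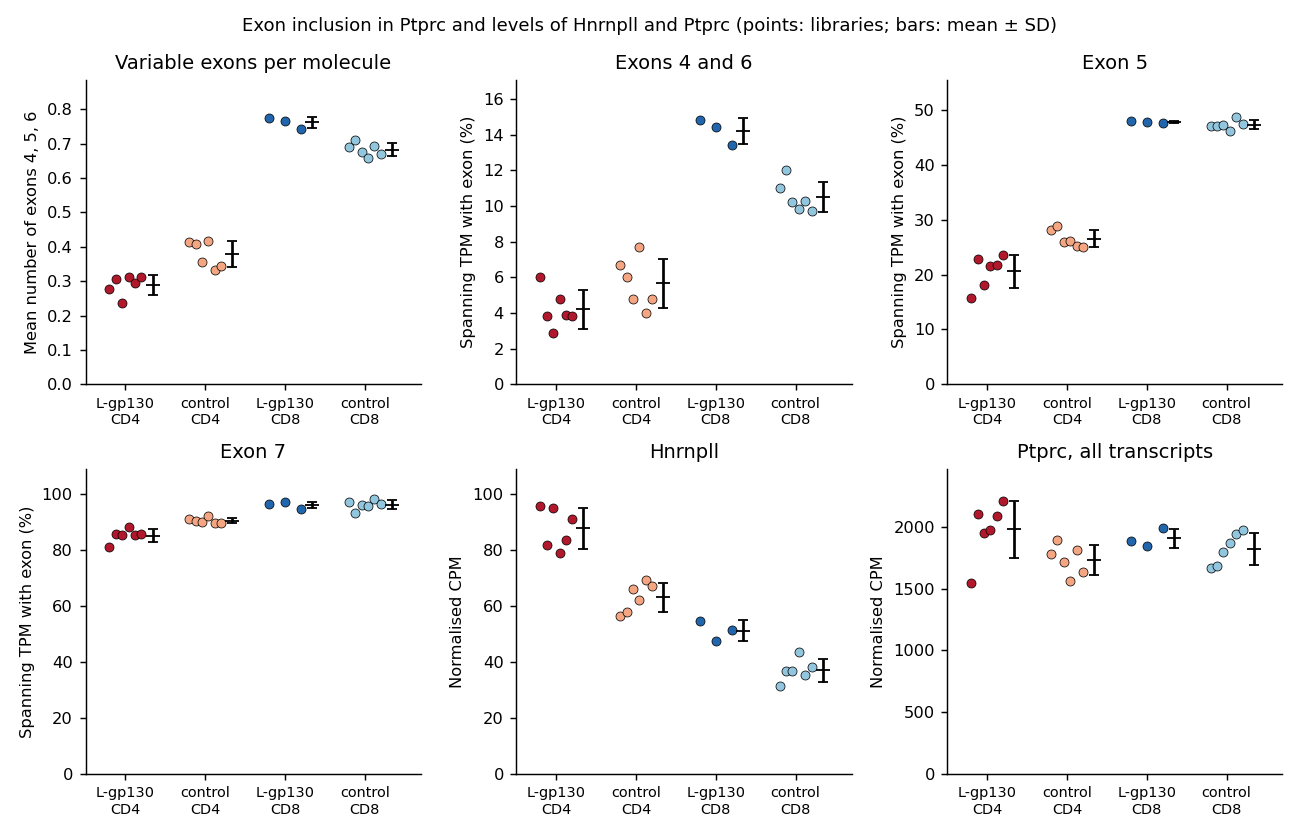
Values per library (points) with mean ± SD (bars) in the 4 groups, for the mean number of exons 4, 5 and 6 per spanning molecule, the percentage of spanning TPM with exons 4 and 6, exon 5 or exon 7, and the normalised CPM of Hnrnpll and of all Ptprc transcripts. The exon means lie lower in L-gp130 than in control CD4 libraries (0.290 and 0.379) and higher in L-gp130 than in control CD8 libraries (0.762 and 0.683), while Hnrnpll is higher in L-gp130 libraries of both cell types.

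The genotype difference was compared between the cell types by permuting genotype labels within each. The null of these permutations is no genotype difference in either cell type. A low permutation p alone therefore does not show that the differences are unequal. The permutations were not run with replicate numbers as pairs. For the mean number of variable exons the CD4 difference minus the CD8 difference was -0.167, with genotype labels permuted within each cell type (exact permutation p = 2.6e-05, the smallest that 77616 arrangements allow). It was -0.174 without replicate 1 of L-gp130 CD4 and replicate 5 of control CD4 (exact permutation p = 9.4e-05). For exon 5 the difference of differences was -6.44 percentage points (exact permutation p = 0.00049), for exons 4 and 6 it was -5.15 (exact permutation p = 0.00085), and for exon 7 it was -5.29 (exact permutation p = 0.0078). In the usage test 1 of 12 tested Ptprc transcripts was called, against 0.186% of 40943 transcripts: Ptprc-207, at -0.93 ± 0.22 log2 (SE, edgeR adjusted p = 0.0299). That call was lost with relative log expression size factors (edgeR adjusted p = 0.0532), with the replicate block (0.356) and in 11 of the 21 fits that each left out 1 library, with an adjusted p of up to 0.119. In the fit of transcript levels 0 of 12 Ptprc transcripts were called by edgeR, against 0.333% of 46589 transcripts, and 2 of the 12, Ptprc-204 and Ptprc-207, had an unadjusted p under 0.05.

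Control CD4 cells carried fewer variable exons than control CD8 cells. The mean number per molecule was 0.379 ± 0.0385 in control CD4 and 0.683 ± 0.0185 in control CD8 libraries (SD, n = 6 each), a difference of -0.304 (exact permutation p = 0.00216). Exon 5 was in 26.6 ± 1.61% and 47.3 ± 0.843% of spanning TPM in control CD4 and control CD8 libraries, exons 4 and 6 in 5.66 ± 1.39% and 10.5 ± 0.854%, and exon 7 in 90.4 ± 0.986% and 96.0 ± 1.58%. None of these exon values overlapped between the control groups. With shares of reads the difference was -12.5 percentage points for exon 5, in place of -20.7 with TPM, and -9.66 for exons 4 and 6, in place of -4.84 (exact permutation p = 0.00216 each). B cell marker sums were 287 to 1081 CPM in control CD4 and 46 to 116 CPM in control CD8 libraries, and their part in this difference was not tested.

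The transcripts behind this were called broadly, 7 of 11 tested Ptprc transcripts against 25.0% of 38337 transcripts. Ptprc-207 was at -1.08 ± 0.15 log2 and Ptprc-213 at -1.0 ± 0.13 log2 in control CD4 over control CD8 cells (SE, edgeR adjusted p = 0.000265 and 0.00021). Ptprc-204 was higher in control CD4 cells, at 1.06 ± 0.24 log2 (SE, edgeR adjusted p = 0.00802), with 42.6 to 71.4 TPM against 15.6 to 39.8 TPM in control CD8 libraries. Ptprc-206, a retained-intron model that ends in intron 5 and holds exons 4 and 5, was at -2.42 ± 0.27 log2 (SE, edgeR adjusted p = 5.2e-05), with 3.46 to 10.3 TPM in control CD4 and 20.5 to 33.0 TPM in control CD8 libraries. Ptprc-203, the most abundant form in both, did not pass, at 0.14 ± 0.09 log2 (SE, edgeR adjusted p = 0.331), although its share was 54.9% in control CD4 and 42.2% in control CD8 libraries. The usage test called 5 of 11, against 7.89% of 32649 transcripts: Ptprc-204 upward and Ptprc-206, Ptprc-207, Ptprc-211 and Ptprc-213 downward in control CD4 cells. Without control CD4 replicate 1 the transcript-level edgeR adjusted p of Ptprc-204 was 0.0572, while Ptprc-206, Ptprc-207 and Ptprc-213 kept their calls in all 12 fits that left out 1 library. The calls of Ptprc-201, Ptprc-210 and Ptprc-211 were lost in 6, 10 and 3 of those 12 fits, and the usage call of Ptprc-211 in 5 (edgeR adjusted p of up to 0.470). Selection method and depth go with cell type in this comparison and cannot be told apart from it.

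**Figure D4:**
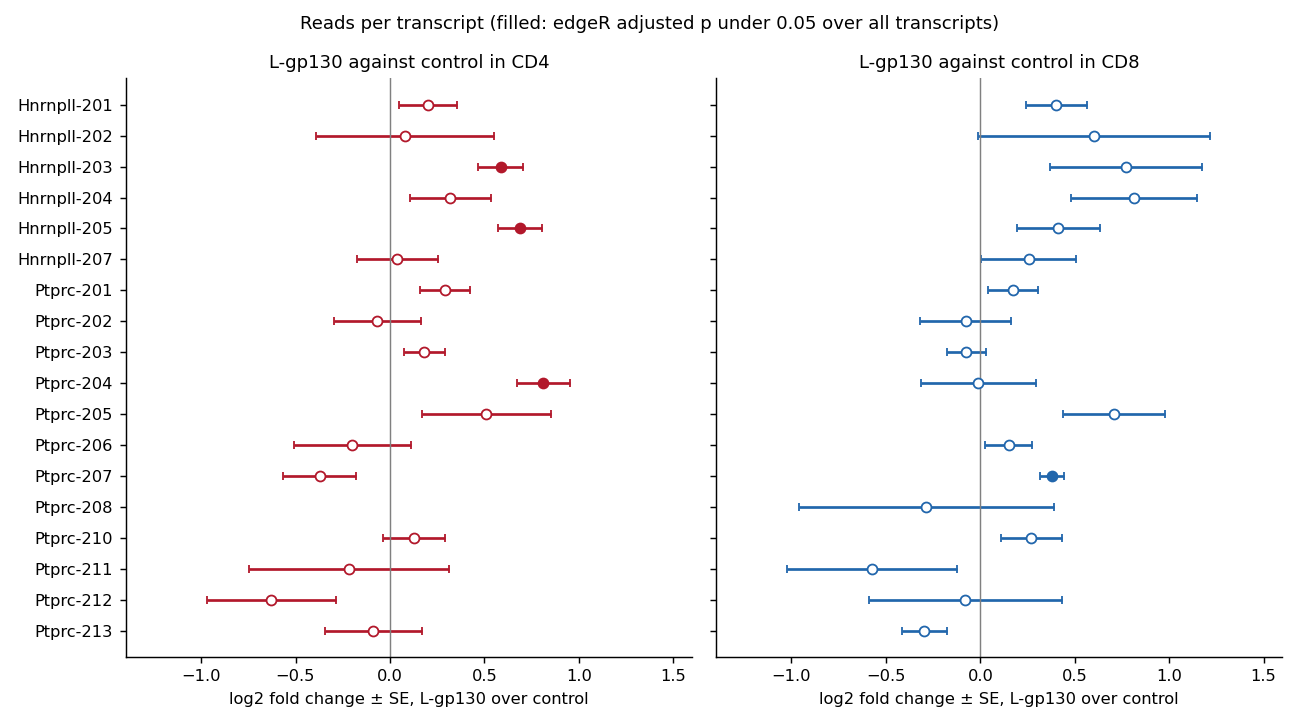
Log2 fold change ± SE (x axis) of each tested Hnrnpll and Ptprc transcript, L-gp130 over control, in CD4 (left) and CD8 cells (right), from edgeR; filled points passed an adjusted p of 0.05 over all transcripts. In CD4 cells Hnrnpll-203, Hnrnpll-205 and Ptprc-204 are filled and lie above 0, and in CD8 cells Ptprc-207 is filled and lies above 0.

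The other 9 Ptprc models are short, start late or hold introns and together made up the rest of Ptprc TPM. Ptprc-205, a 364-base model of exons 2 and 3 with part of intron 3, was at 3.08%, 3.4% and 3.48% of Ptprc TPM in the L-gp130 CD8 libraries, against 1.24% to 2.31% in control CD8 libraries (exact permutation p = 0.0238). Only 37.1 to 39.5 reads per L-gp130 CD8 library lay behind it, and in edgeR it was at 0.71 ± 0.27 log2 (SE) and missed the threshold (adjusted p = 0.200). Ptprc-206 was a small part of CD4 libraries, 0.605 ± 0.166% in L-gp130 and 0.830 ± 0.313% in control, and a larger part of CD8 libraries, 3.65 ± 0.253% in L-gp130 and 3.19 ± 0.319% in control. Ptprc-210, a single block from intron 4 to intron 6 that includes exons 5 and 6, made up 3.69 ± 0.675% in L-gp130 and 4.34 ± 0.871% in control CD4 libraries, and 5.03 ± 0.309% in L-gp130 and 4.21 ± 0.827% in control CD8 libraries. Ptprc-201, which starts in intron 7, Ptprc-202, which ends in intron 3, and Ptprc-212, a fragment with exon 4 and part of exon 6, averaged between 0.827% and 2.75% in each group. Ptprc-208, Ptprc-209 and Ptprc-211 averaged under 0.117% in each group. Ptprc-209 was too low to be tested in any comparison, and Ptprc-208 was tested only where L-gp130 CD8 libraries took part.

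Hnrnpll was higher in L-gp130 cells of both types, and higher in CD4 than in CD8 cells. In CD4 cells it held 79.0 CPM at the lowest, 87.3 at the median and 95.8 at the highest in L-gp130 libraries, and 56.5, 64.2 and 69.4 CPM in control libraries. In CD8 cells it held 54.7, 47.3 and 51.3 CPM in the 3 L-gp130 libraries, against 31.3 to 43.7 CPM with a median of 36.8 in control libraries. The groups did not overlap within either cell type, and the order of the group means was L-gp130 CD4 (87.7 ± 7.22 CPM), control CD4 (63.1 ± 5.2), L-gp130 CD8 (51.1 ± 3.73) and control CD8 (37.0 ± 4.05). Neighbours in this order did not overlap, and the closest were control CD4, which started at 56.5, and L-gp130 CD8, which ended at 54.7.

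The log2 fold change of Hnrnpll was 0.47 ± 0.08 in CD4 cells (SE, edgeR adjusted p = 0.00189) and 0.47 ± 0.11 in CD8 cells (SE, edgeR adjusted p = 0.0140). The CD8 call was lost without replicate 1 of L-gp130 CD8 (0.43, edgeR adjusted p = 0.0793) or without replicate 3 (0.44, edgeR adjusted p = 0.0817). With the replicate block the CD8 value was 0.58 (edgeR adjusted p = 0.0077). Between control CD4 and control CD8 cells it was 0.77 ± 0.09 (SE, edgeR adjusted p = 7.4e-06). The genotype difference was not shown to differ between the cell types, at 0.03 ± 0.12 log2 (SE, edgeR adjusted p = 0.946, with 3.46% of 15758 genes called).

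Among the Hnrnpll transcripts, the coding models Hnrnpll-201 and Hnrnpll-205 have 13 exons each, and Hnrnpll-205 starts 107 bases further downstream and differs in 3 exons. Hnrnpll-203, with 14 exons, is annotated as a target of nonsense-mediated decay, the pathway that destroys messages with an early stop codon. It contains an 83-base exon at chr17:80044940-80045022 that lies outside the exons of Hnrnpll-201. In CD4 cells 2 of 6 tested Hnrnpll transcripts rose, against 5.02% of 39131 transcripts called in either direction. They were Hnrnpll-205 at 0.69 ± 0.12 log2 (SE, edgeR adjusted p = 0.00594) and Hnrnpll-203 at 0.59 ± 0.12 log2 (SE, edgeR adjusted p = 0.0159). Hnrnpll-205 held 16.5 to 19.6 TPM in L-gp130 and 10.2 to 14.8 TPM in control CD4 libraries, and Hnrnpll-203 held 6.79 to 9.04 and 5.07 to 7.03 TPM. The first pair of ranges did not overlap and the second did. Without replicate 1 of control CD4 the edgeR adjusted p was 0.0534 for Hnrnpll-205 and 0.056 for Hnrnpll-203, and without replicate 6 of L-gp130 CD4 it was 0.1215 for Hnrnpll-203.

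Hnrnpll-201 was not called in CD4 cells, at 0.20 ± 0.15 log2 (SE, edgeR adjusted p = 0.550), with 6.65 to 9.75 TPM in L-gp130 and 6.22 to 8.40 TPM in control libraries. In CD8 cells 0 of 6 Hnrnpll transcripts were called by edgeR, against 4.12% of 38877 transcripts. Of the 6, Hnrnpll-201 and Hnrnpll-204 had an unadjusted p under 0.05, and all 6 estimates were above 0, between 0.26 and 0.81. The usage test called 0 of 6 in either genotype comparison, with no unadjusted p under 0.05, against 0.219% (CD4) and 0.448% (CD8) of all transcripts. Between control CD4 and control CD8 cells 5 of 6 transcripts were higher in CD4 cells, against 25.0% of all transcripts called in either direction. Of these calls, Hnrnpll-201 was lost in 9 of the 12 fits that left out 1 library, Hnrnpll-202 without control CD8 replicate 3 or 6, and Hnrnpll-205 without control CD8 replicate 3. Hnrnpll-203 made up 18.4 ± 2.03% of Hnrnpll TPM in control CD4 and 8.06 ± 3.80% in control CD8 libraries, without overlap, and its usage differed by 1.04 ± 0.28 log2 (SE, edgeR adjusted p = 0.0109). Hnrnpll-201 went the other way in usage, at -0.49 ± 0.13 log2 (SE, edgeR adjusted p = 0.0146). Without control CD4 replicate 1 the Hnrnpll-203 usage value was 0.63 (edgeR adjusted p = 0.516), and the Hnrnpll-201 usage call was lost without control CD4 replicate 5 or control CD8 replicate 3 or 6.

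Set beside each other, Hnrnpll and the variable exons had opposite orders across cell types but not across genotypes in CD8 cells. In control cells, CD4 libraries had more Hnrnpll and fewer variable exons than CD8 libraries, and in CD4 cells L-gp130 libraries had more Hnrnpll and fewer variable exons than control libraries. In CD8 cells L-gp130 libraries had more Hnrnpll and also more variable exons. Within groups of 6 libraries the relation of Hnrnpll CPM to the mean number of variable exons had Pearson r = -0.692 in L-gp130 CD4 (exact permutation p = 0.117, adjusted 0.142), r = -0.920 in control CD4 (exact permutation p = 0.0222, adjusted 0.0667) and r = -0.654 in control CD8 libraries (exact permutation p = 0.142, adjusted 0.142). Spearman's rho was -0.6, -0.829 and -0.771 in these groups (exact permutation p = 0.242, 0.0583 and 0.103). Without the 2 libraries farthest from the median Hnrnpll, r was -0.665, -0.969 and -0.537. All 3 were negative and none passed the adjustment, and 6 relations were computed in all, 3 with Hnrnpll and 3 with the B cell marker sum. In control CD4 libraries the lowest Hnrnpll came with a B cell marker sum of 1081 CPM and the highest with 287 CPM. In control CD8 libraries these sums were 109 and 47.2 CPM, and in L-gp130 CD4 libraries they were 597 and 681 CPM. The part of B cell RNA in the Hnrnpll relations was not tested.

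**Figure D5:**
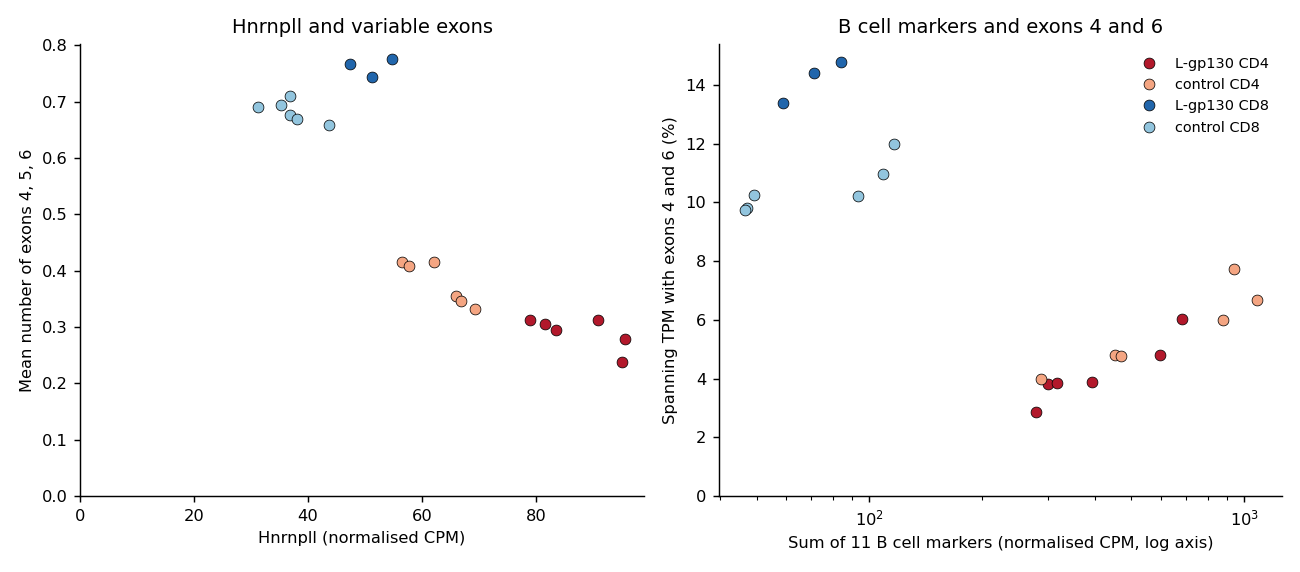
Left, mean number of exons 4, 5 and 6 per spanning Ptprc molecule (y axis) against Hnrnpll (normalised CPM, x axis); right, percentage of spanning TPM with exons 4 and 6 (y axis) against the sum of 11 B cell markers (normalised CPM, log x axis). Each point is 1 of the 21 libraries; the L-gp130 CD8 points lie above the control CD8 points in both panels, at 47.3 to 54.7 CPM of Hnrnpll against 31.3 to 43.7.

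The other regulators of CD45 splicing were followed as a list of 19 genes that includes Hnrnpll. In CD4 cells 5 of 19 rose and none fell, against 18.9% of all genes called in either direction, with a median log2 fold change of 0.13 against -0.01 over all tested genes. In edgeR 13 of the 19 had an unadjusted p under 0.05, and DESeq2 called 10. Gfi1, a transcriptional repressor linked to CD45 exon choice in mice, was at 0.85 ± 0.10 log2 (SE, edgeR adjusted p = 0.000125), with 32.0 ± 4.10 CPM in the L-gp130 and 18.7 ± 2.28 CPM in the control libraries. Sfpq (PSF), which represses the variable exons in activated T cells, was at 0.37 ± 0.08 log2, and Tra2b, an SR-related splicing activator, at 0.35 ± 0.08 log2 (SE, edgeR adjusted p = 0.00533 and 0.0081). Hnrnpl, which encodes the relative that silences the same exons, was at 0.01 ± 0.06 log2 in CD4 (SE, edgeR adjusted p = 0.922) and 0.10 ± 0.06 log2 in CD8 cells (SE, edgeR adjusted p = 0.230).

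In CD8 cells 5 of the 19 rose and 2 fell, against 21% of all genes called, with a median of 0.15 against -0.01 over all tested genes. In edgeR 9 had an unadjusted p under 0.05, and DESeq2 called 8. Srsf7, an SR protein, was at 0.29 ± 0.06 log2, and Ptbp1, a polypyrimidine-tract binding repressor, was also at 0.29 ± 0.07 log2 (SE, edgeR adjusted p = 0.0114 and 0.0180). Gsk3b, the kinase that holds PSF inactive in resting human T cells, fell by 0.31 on the log2 scale (SE 0.07, edgeR adjusted p = 0.0134). Control CD4 over control CD8 cells had 3 of 19 higher and 11 lower, where 52.3% of all genes were called. Celf2, which encodes a CUG-binding splicing factor, was the 1 member called by edgeR for a genotype difference that differed between the cell types. It was at 0.44 ± 0.11 log2 (SE, edgeR adjusted p = 0.0298), with 302 ± 32.2 CPM in the L-gp130 and 247 ± 18.1 CPM in the control CD4 libraries. In CD8 cells it held 251 ± 25.5 CPM in the L-gp130 and 270 ± 14.2 CPM in the control libraries. DESeq2 called 3 members for this difference, and 4 had an unadjusted p under 0.05 in edgeR.

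Of 12 genes for proteins that CD45 acts on or with, 4 rose and 2 fell in L-gp130 CD4 cells, against 18.9% of all genes called, with a median of 0.13 log2 against -0.01 over all genes. Pag1, the adaptor that brings the inhibitory kinase Csk to Lck, fell by 0.71 on the log2 scale in CD4 and by 0.57 in CD8 cells (SE 0.09 and 0.13, edgeR adjusted p = 0.000226 and 0.0130). Ptpn22, a phosphatase that works with Csk against Lck, was at 0.54 ± 0.10 log2 in CD4 and 0.25 ± 0.08 log2 in CD8 cells (SE, edgeR adjusted p = 0.00233 and 0.0448). Zap70, the kinase downstream of Lck, was at 0.48 ± 0.08 log2, and Fyn, a CD45 substrate, at 0.40 ± 0.08 log2 in CD4 cells (SE, edgeR adjusted p = 0.00117 and 0.00387). In CD8 cells 2 of the 12 rose and 2 fell, against 21% of all genes called, with a median of -0.07 log2 against -0.01: Lgals1, a galectin that binds CD45 sugars, rose by 0.71 ± 0.13 log2, and Cd247, the CD3 zeta chain, fell by 0.60 on the log2 scale (SE 0.08, edgeR adjusted p = 0.00481 and 0.000647).

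Of 8 other receptor-type tyrosine phosphatases, 1 rose and 3 fell in each genotype comparison, against 18.9% (CD4) and 21% (CD8) of all genes called, with medians of -0.31 log2 in CD4 and 0.04 log2 in CD8 cells. Ptprs rose in both, at 0.66 ± 0.15 log2 in CD4 and 0.87 ± 0.12 log2 in CD8 cells (SE, edgeR adjusted p = 0.00994 and 0.000906). Ptprm and Ptpra fell in both, Ptprm by 1.19 and 2.50 and Ptpra by 0.22 and 0.25 on the log2 scale in CD4 and CD8 cells (edgeR adjusted p of 0.0178, 0.00394, 0.0239 and 0.0235). Ptprf fell by 1.23 on the log2 scale in CD4 cells and Ptprk by 1.04 in CD8 cells (edgeR adjusted p = 0.0291 and 0.0262).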

How the data were processed

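Each library was poly(A) RNA from spleen T cells, sequenced as paired unstranded reads of 150 bases, per the labels. The authors deposited, per the file headers, Salmon tables with TPM and estimated counts (NumReads) per transcript, and gene tables of expected counts. The submitters' processing notes name cutadapt 3.4, Trimmomatic 0.39, Salmon 1.5.2, edgeR 3.34.1 and GRCm38, with no roles. Estimated counts were rounded to whole numbers. edgeR 4.0.16 (R 4.3.3) fitted quasi-likelihood models with TMM scaling, its default low-count filter and labelled sex as a covariate, and tested transcript usage within genes; adjustment was Benjamini-Hochberg over all features, at 0.05. limma 3.58.1 and DESeq2 1.42.0 were alternatives. CPM are Salmon reads summed per gene, TMM-normalised over all 21 libraries, while the genotype fits at gene level used the deposited gene tables. Exon inclusion is the TPM of spanning transcripts with the exon over that of all 4, compared by 2-sided exact permutation tests. Fits were tested on simulated data. The members and gene lists were chosen with earlier results of these data known. Members were always named, and of each list the called genes with the lowest adjusted p, up to 4 per comparison; the 5 genes most like each member were chosen by Pearson r of log2 CPM (mean log2 CPM of at least 3, pseudocount 0.5), and Hnrnpl, Cd79b and Ms4a1 were named after their values were seen. Libraries with the same mouse number in the 2 CD8 groups had the same labelled sex, and their deviations were weakly correlated (0.126 to 0.413 in 3 pairs). Whether they are paired is not known, so blocked values stand beside CD8 results they change. No 2 libraries were duplicates.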

Additional observations from a re-analysis of the deposited data

Results flagged for a closer look

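The genotype differences in CD4 and CD8 cells were flagged as unlike for 5 measures. The exact permutations take no genotype difference in either cell type as the null, so a low p alone does not show unequal differences. CD4 difference minus CD8 difference was -0.167 for the mean number of variable exons, -5.15 percentage points for exons 4 and 6, -6.44 for exon 5 and -5.29 for exon 7, all by exact permutation, and -0.93 log2 for the usage of Ptprc-207 by edgeR. These measures are not independent. The mean number is built from the values of exons 4, 5 and 6, and Ptprc-207 alone supplies exons 4 and 6. The usage call was lost with the replicate block and in 11 of the 21 fits that each left out 1 library.

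In 2 of 78 group values 1 library stood far from the others, where chance gives about 1 in 20. The share of Hnrnpll-204, a retained-intron transcript, was 10.2% of Hnrnpll TPM in L-gp130 CD4 replicate 4, with the next at 7.15%. The share of Ptprc-209 was 0.0162% of Ptprc TPM in control CD8 replicate 1 and 0 in the other 5 control CD8 libraries.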

How the results depend on the processing

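The lower number of variable exons in L-gp130 CD4 cells kept its direction and its exact permutation p under 0.05 in every alternative run (p of 0.00216 to 0.0368). In CD8 cells the replicate block gave 0.0695, and leaving out 1 library gave 0.0720 to 0.0880. Exon 7 in CD8 cells, near 0 in the main value, was 0.0995 with shares of reads, 0.150 with complete coding sequences only, 0.605 with the block and -0.628 to 0.566 when 1 library was left out. Ptprc-204 in CD8 cells was 0.0209 log2 without the sex term, and from -0.273 to 0.175 (level) and -0.288 to 0.174 (usage) when 1 library was left out. For total Ptprc the block gave -0.00697 log2 in CD4 and 0.0903 in CD8 cells, and Salmon sums gave 0.0652 in CD8 cells. Leaving out 1 library gave 0.0834 to 0.282 for total Ptprc in CD4 cells, never called. It gave -0.0657 to 0.00979 in CD8 and -0.100 to 0.000637 for control CD4 over control CD8 cells. Hnrnpll kept its direction in both genotype comparisons, at 0.43 to 0.55 in CD8 cells with 1 library left out; its difference between cell types was -0.0161 without a filter, -0.0318 with the block and -0.0486 to 0.0805 with 1 library left out. The cause of these shifts was not tested.

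Counts of calls over all features moved more. Genes numbered 1411 to 3642 (CD4) and 1374 to 2967 (CD8) with 1 library left out, and the difference between cell types gave 268 with the block, 955 with DESeq2, 888 without L-gp130 CD4 replicate 1 and control CD4 replicate 5, and 236 to 984 with 1 library left out. Transcripts in CD4 numbered 1240 without a filter, 3278 without the sex term, 368 with the block and 742 to 2592 with 1 library left out; in CD8 6 with the block and 241 to 1487; between control groups 4074 with the block; for the difference 90 without a filter, 248 without sex, 52 with the block, 243 without the same 2 libraries and 92 to 306. Usage calls numbered 137 without sex, 270 with limma and 53 to 170 in CD4; 379 with the block and 377 with limma in CD8; 1218 with the block, 4378 with limma and 1604 to 2839 between control groups; and 130 with limma for the difference. Leaving out L-gp130 CD4 replicate 6, control CD4 replicate 1 or any L-gp130 CD8 library moved the CD4 or CD8 counts by over 1.5 times, as did control CD8 replicate 5 for CD8 transcripts (967) and L-gp130 CD4 replicate 1 for the difference in genes (984). Replicate numbers were not shown to pair the CD4 groups (correlation -0.528 to 0.342) or the control groups (0.0478 to 0.375).

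In simulated data, usage changes of log2 size 1 were recovered in 45% of cases in CD4 and 51% in CD8, at the depth and replicate number of these libraries. The changes were placed only in well-read transcripts that came next in abundance to the main one of their gene. Recovery for transcripts with few reads was not measured.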

Other observations

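Across all 21 libraries, log2 CPM of total Ptprc was most like that of Ssbp3 (Pearson r = 0.895), Ap3b1 (0.860), Celf2 (0.844), Notch1 (0.826) and Celsr1 (0.817) among 9284 genes. Hnrnpll was most like Stk39 (0.966), Chst2 (0.962), Cpd (0.962), Inppl1 (0.960) and Ptpn7 (0.959), and Ptprc and Hnrnpll had r = 0.208. These values describe libraries that share cell type and genotype, so they carry no test. Fyn, a CD45 substrate, and Ptprf were the called members of their lists whose genotype difference differed between cell types, Fyn at 0.41 ± 0.09 log2 and Ptprf at -1.51 ± 0.35 log2 (SE, edgeR adjusted p = 0.0128 and 0.0175).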
